A study of Mus musculus with 10 samples.

Results

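M1 is a mesenchymal mouse mammary tumour cell line, and its expression was set against that of 3 other mesenchymal lines with the same history, M2, M3 and M4. The comparison was defined by the lines alone: the 2 arrays of M1 against the 6 arrays of M2, M3 and M4, 8 of the 10 arrays of the series. The M lines were each grown from a tumour that relapsed in a female FVB/N mouse after injection of E cells. E, the remaining line, is epithelial. It was grown from a mammary adenocarcinoma that arose spontaneously in a female FVB/N-TgN(MMTVneu)202Mul mouse, which carries the neu oncogene under the mammary tumour virus promoter. All M lines therefore descend from E cells that carried that transgene. No agent was given in any group, and all lines were cultured in RPMI with 10% fetal bovine serum to 80% confluence. Each line stands for a single relapsed tumour. Nothing in the labels ties the paired arrays to separate cultures, so the p-values measure only how far such paired arrays spread, which may be technical.

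Epithelial tumour cells can pass into a mesenchymal state in which adhesion molecules and simple keratins are lost and vimentin, matrix proteins and the transcription factors of the Snai, Zeb and Twist families are gained. Keratin 8 (Krt8) and keratin 18 (Krt18) are obligate partners: a filament of simple epithelium is built from pairs of both, and an unpaired keratin is usually degraded. Lines that reach this state separately can differ in the matrix they make, the cytokines they secrete and the epithelial genes they keep.

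The M1 arrays fitted the mesenchymal label. The mean M1 signal was 1250 for the transcription factor Zeb1, 1380 for Snai2 and 3510 for the receptor kinase Axl, against 9.93, 5.15 and 7.54 in E. The intermediate filament gene Vim was at 14900 in M1, but it did not separate the states: E had 8740 and M3 8010. Epcam, an epithelial adhesion molecule, had a mean signal of 3.4 in M1 and 9500 in E, and E-cadherin (Cdh1) had 16.1 in M1 and 3040 in E. Markers of other cell types were mostly low: of the listed markers on the array, 2 of 21 for leukocytes, 1 of 15 for endothelium, 0 of 12 for adipocytes, 1 of 17 for skeletal muscle, 3 of 16 for cartilage and bone and 4 of 18 for nerve and glia exceeded a signal of 100 in M1. The 2 M1 arrays correlated at 0.9923 across the 31376 probe sets that passed the filter on low signals, and with the other mesenchymal arrays at 0.9477 to 0.9683. The trimmed mean of the deposited signals was 252 and 249 on the M1 arrays and 181 to 272 on the other mesenchymal arrays. The 3' to 5' ratio, a measure of RNA quality, differed between 2 control genes. For Actb it was 1.16 on both M1 arrays and 1.22 to 1.38 on the others, so M1 was lowest. For Gapdh it was 0.84 and 0.85 on the M1 arrays and 0.77 to 0.83 on the other mesenchymal arrays, so M1 was highest. The mean signal of the hybridization controls was 1479 and 1400 in M1 and 1067 to 1356 on the other mesenchymal arrays. The part of these measures in the results below was not tested.

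In what follows, "elsewhere" and "the other arrays" mean the 6 arrays of M2, M3 and M4, and E is named where its values are given. Of 14369 genes tested, 638 were called, which is 4.44% of all. The percent called of each gene list below is to be read beside this share. A call needed a Benjamini-Hochberg adjusted p under 0.05 in limma and a change of at least 2-fold between M1 and the average of the other 3 lines. M1 was higher for 293 genes (2.04%) and lower for 345 (2.4%), so that 45.9% of the calls were higher. This split moved with the scaling: with the signals as deposited, 536 were higher and 252 lower (68% higher), with the median of all genes at 0.14 on the log2 scale in place of -0.01, and with median centring 457 were higher and 273 lower (62.6% higher). Changes of at least 4-fold were more often decreases than increases, 76 against 35 among the called genes, and of the 9 genes past 16-fold 1 was higher and 8 were lower. Over all genes tested, both M1 arrays lay above all 6 others for 1966 (13.7%) and below all 6 for 1988 (13.8%); among the called genes the arrays did not overlap for 259 of the higher and 304 of the lower. In E, 54.3% of the genes that were higher in M1 and 41.4% of those that were lower had a mean signal over 100, against 57.4% of all genes.

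**Figure D1:**
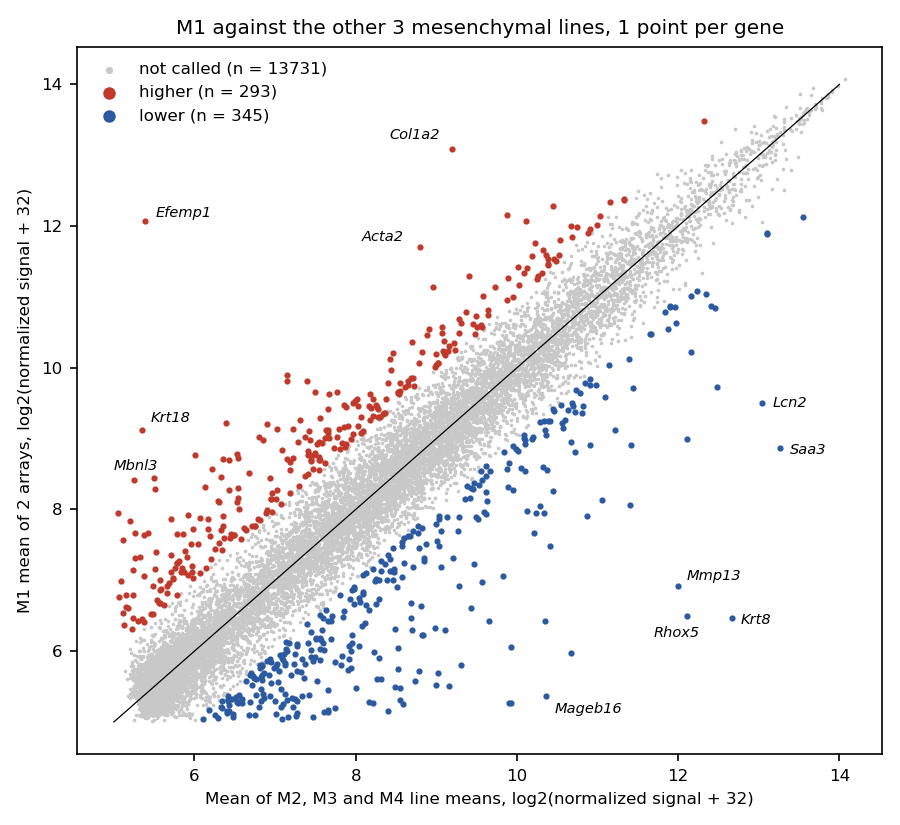
Mean log2(quantile-normalized signal + 32) of M1 (vertical axis) against the average of the M2, M3 and M4 line means (horizontal axis), 1 point per gene, with called genes coloured (red higher, blue lower) and the line of equality. Efemp1 stands alone at the upper left, and Krt8, Rhox5 and Mmp13 lie farthest below the line.

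The calls compare M1 with these 3 lines, and the other lines also differed among themselves. When each line mean was taken as 1 value, the spread was that between M2, M3 and M4, with 2 residual degrees of freedom. In this limma test 8 genes passed the adjusted p and the size criterion. An unadjusted p under 0.05 was found for 704 of 14369 genes, close to the share that such a cut-off passes when no gene differs. The 5 that were higher were Efemp1, Krt18, Mbnl3, Khdrbs3 and Sfn, and the 3 that were lower were Krt8, Mageb16 and Saa3, with adjusted p of 0.0207 to 0.045. Sfn, which encodes the 14-3-3 sigma protein of epithelial cells, was named here after its values were seen: its signals were 149 and 166 on the M1 arrays and 1.0 to 6.4 on the other mesenchymal arrays. For every other called gene below, the call rests on array-to-array spread inside each line, and the test with line means was not passed. The 5 higher genes were near background in M2, M3 and M4, where adding 32 before taking log2 shrinks the spread between lines. The SD of these line means was 0.008 for Khdrbs3, 0.115 for Mbnl3, 0.127 for Efemp1 and 0.15 for Krt18 (log2). The 3 lower genes had high signals in those lines, with SDs of 0.135 to 0.345. The test therefore favours increases from background, and the part of the added 32 in these 5 calls was not tested.

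The keratin pair was split between the lines. Krt18 had normalized signals of 512 and 533 on the M1 arrays, 7.7 and 20.9 in M2, 7.5 and 7.7 in M3, and 3.5 and 7.5 in M4. Krt8 had the opposite order, with 46.7 and 67.3 in M1 against 8311 and 7694 in M2, 6244 and 6213 in M3, and 5589 and 5323 in M4. No array overlapped for either gene: M1 was the mesenchymal line with Krt18 and little Krt8, and the others had Krt8 with Krt18 near background. On the log2 scale Krt18 was higher in M1 by 3.76 ± 0.10 (SE; limma adjusted p = 1.73e-11) and Krt8 fell by 6.20 ± 0.07 (SE; limma adjusted p = 2.34e-15). The epithelial line had both, with mean signals of 11700 for Krt18 and 7210 for Krt8. The Krt18 level of M1 was thus far below that of E, while the Krt8 level of M2, M3 and M4 was near it. Of the 3 probe sets for Krt8, all were called lower; Krt18 had no other probe set.

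The pair lies side by side on chromosome 15, with 2 long non-coding RNA genes between them in the mouse gene table. The 250 bases upstream of each start site (RefSeq, GRCm38.p6) are shown because the pair moved in opposite directions, with the E-box in capitals. The E-box searched was CACCTG or CAGGTG, the same 6 letters read on either strand, which is the motif bound by the Snai and Zeb factors and which 17.2% of the 32851 windows of this length hold. Each window had a single match. The Krt18 window is chr15:102027966-102028215 on the plus strand and the Krt8 window is chr15:102004343-102004592 on the minus strand, each written 5′ to 3′.
Krt18: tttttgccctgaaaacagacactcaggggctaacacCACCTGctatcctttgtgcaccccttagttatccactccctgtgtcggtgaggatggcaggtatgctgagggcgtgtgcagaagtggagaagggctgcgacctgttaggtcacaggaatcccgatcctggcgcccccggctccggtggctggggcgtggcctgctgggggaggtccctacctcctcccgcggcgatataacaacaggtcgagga
Krt8: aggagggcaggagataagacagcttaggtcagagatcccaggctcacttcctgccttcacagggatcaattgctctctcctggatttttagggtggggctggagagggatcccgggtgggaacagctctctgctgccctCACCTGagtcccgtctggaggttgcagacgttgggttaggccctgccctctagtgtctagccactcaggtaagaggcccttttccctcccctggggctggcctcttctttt
The match starts 214 bases before the start site in Krt18 and 111 bases before it in Krt8. The motif was thus present in the promoter windows of both genes, of which M1 had the higher signal for Krt18 and the lower for Krt8.

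Apart from the keratin pair, the called genes of the epithelial list changed by less than 4-fold. Of 28 tested epithelial adhesion genes and keratins, 4 were higher in M1 and 1, Krt8, was lower (17.9% called), with a median of -0.07 against -0.01 for all genes. The higher ones besides Krt18 encode desmosome components. Plakophilin 2 (Pkp2) had signals of 582 and 579 in M1 and 48.5 to 200 elsewhere, a change of 1.96 ± 0.08; E was above M1, with a mean of 889. Plakophilin 1 (Pkp1) was higher by 1.47 and the desmosomal membrane protein Perp by 1.41, but Perp was at 1250 in M2 and 1520 in M3 against 1730 in M1, and without line M4 its change was 0.33 and not called. Erbb3, a neu-related receptor kinase, fell by 1.61 on the log2 scale, with a mean of 26.2 in M1 and 87.3 to 263 in the other lines.

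Efemp1 showed the largest increase. It encodes fibulin-3, a secreted glycoprotein of the extracellular matrix. The signals were 4531 and 4041 on the M1 arrays, and on the 6 other mesenchymal arrays they ran from 5.7 to 21.3. E had 1.0 and 9.6, so M1 was the line with a signal for this gene and the other 4 were near background. The change was 6.68 ± 0.15 on the log2 scale (SE; limma adjusted p = 2.39e-12). Among the 20 tested genes of elastic fibres and fibulins, Efemp1 was the 1 called higher; the microfibril gene Mfap5 was called lower (-1.23), a call lost without line M4 (-0.83). The list's median was -0.02.

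Regulators of RNA splicing held 2 further genes with near-background signals in the other mesenchymal lines. Mbnl3, an X-linked muscleblind-like splicing regulator, had signals of 325 and 294 in M1 and 1.8 to 11.2 on the other 6 arrays. E had 535 and 546, above M1. Mbnl3 was higher in M1 by 3.16 ± 0.11 (SE; limma adjusted p = 1.3e-10), and its 2 other probe sets were also called higher. Khdrbs3, a KH-domain RNA-binding protein, had signals of 207 and 225 in M1 and 0.7 to 1.4 on the other mesenchymal arrays, a change of 2.90 ± 0.13. Unlike Mbnl3, Khdrbs3 was also near background in E, at 1.2 and 2.3. Of 27 tested splicing regulators 4 were higher and 1 lower (18.5% called, median 0.24). Celf2 was higher by 1.70 but fell short of a call without line M4 (0.63), and Celf4 was lower by a log2 change of -1.60.

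**Figure D2:**
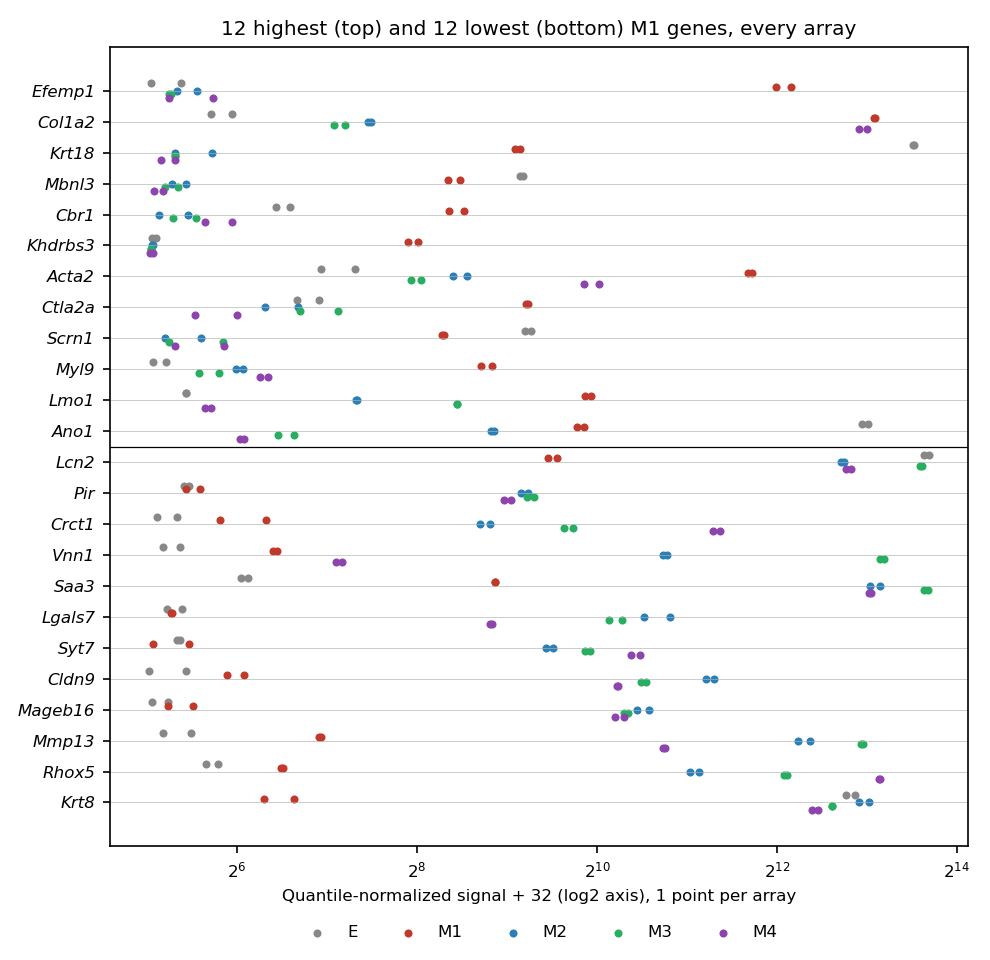
Quantile-normalized signal + 32 on a log2 axis for the 12 highest (top) and 12 lowest (bottom) called genes whose M1 arrays lay outside the range of the other mesenchymal arrays, 1 point per array, coloured by line. Efemp1 and Khdrbs3 are high in M1 alone, whereas Krt18, Mbnl3, Scrn1 and Ano1 are also high in E, and M4 is close to M1 for Col1a2.

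Several genes of the contractile cytoskeleton were higher in M1. Of 21 tested, 5 were called higher, 0 lower and 16 not called (23.8% called), with a median of 0.53 against -0.01 for all genes. The 4 largest had these signals. Smooth muscle actin (Acta2) was at 3254 and 3340 in M1, 306 and 344 in M2, 212 and 231 in M3, and 892 and 1011 in M4. The myosin light chain gene Myl9 was at 423 and 387 in M1 and 15.6 to 49.4 on the other arrays. Neither gene overlapped between M1 and the others, and M4 had the next highest signals of both. Acta2 was higher by 2.90 ± 0.09 and Myl9 by 2.77 ± 0.12 (SE; limma adjusted p = 6.2e-11 and 1.2e-09). The LIM protein gene Csrp1 was higher by 1.41, with 2198 and 2249 in M1 and 670 to 1038 elsewhere. Smoothelin (Smtn) was higher by 1.42, with 475 and 542 in M1 and 116 to 256 elsewhere.

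Srf, the factor that binds the CArG box of many contractile genes, had a mean change of 0.55 and was not called. A CArG box, searched on both strands by its usual consensus, was found in 1.47% of the 32851 promoter windows and in 4 of the 18 contractile genes that had a window. Of the 5 called genes it was in 2, Myl9 and Vcl. The Myl9 window, chr2:156775214-156775463 on the plus strand, is shown 5′ to 3′ with the box in capitals, 161 bases before the start site.
Myl9: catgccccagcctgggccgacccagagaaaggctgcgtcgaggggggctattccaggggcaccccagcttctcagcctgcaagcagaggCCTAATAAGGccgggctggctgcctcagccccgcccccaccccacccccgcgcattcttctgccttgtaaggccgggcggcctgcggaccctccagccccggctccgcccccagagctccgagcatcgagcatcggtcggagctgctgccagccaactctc
Ccn2 and Ccn1, matricellular genes that respond to cell tension and serum, were also higher: Ccn2 had a mean signal of 773 in M1 against 328 in M2, 105 in M4 and 86.5 in M3, a change of 2.16 ± 0.07, and Ccn1 a change of 1.33. E had more Ccn2 than any M line, at 1800.

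Col1a2 and Col6a3 were high in M1 and M4 and lower in M2 and M3, an order that Col5a3 and Pcolce did not share. Of 23 tested collagen and collagen-processing genes, 5 were higher and 1 lower in M1 (26.1% called, median 0.18). The largest change was that of Col1a2, a chain of type I collagen, at 8596 and 8679 in M1 and 8175 and 7707 in M4, but 144 and 148 in M2 and 103 and 115 in M3. Its change against the average was 3.89, made up of 5.61 against M2, 5.94 against M3 and 0.12 against M4, and the last of these did not pass the test (limma adjusted p = 0.262). Col6a3, a chain of type VI collagen, was likewise high in these 2 lines, with means of 1150 in M1, 1190 in M4, 282 in M2 and 82.2 in M3. M1 and M4 overlapped for Col6a3, and its call was lost without line M3 (0.93). Col5a3 was higher by 1.36, a call lost without line M4 (0.98). Pcolce, which enhances procollagen processing, was lower, with a change of -1.20; with the signals as deposited its change was -0.89 and it was not called.

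Several small proteoglycans and matricellular proteins were lower in M1. Of 35 tested, 9 were lower and 3 higher (34.3% called), although the median was 0.03. Prelp, a leucine-rich repeat proteoglycan, had signals of 45.3 and 62.8 in M1, 491 to 962 elsewhere, and 15.2 and 32.3 in E. Matrix Gla protein (Mgp), an inhibitor of calcification, had 168 and 128.1 in M1 and 901 to 1865 elsewhere, below E at 4576 and 4888. Biglycan (Bgn) had 44.2 and 41.3 in M1, 83.5 and 91.5 in M2, 149 and 173 in M3, and 3895 and 4208 in M4, with a mean of 4.08 in E. Among the mesenchymal arrays those of M1 were lowest for all 3 genes, but for Bgn M2 and M3 were much nearer to M1 than M4 was. The log2 changes were -3.23 ± 0.11, -2.93 ± 0.07 and -2.60 ± 0.09 (SE), each with a limma adjusted p of 1.35e-10 or less. Decorin (Dcn) was lower, with a change of -1.21 and not called with the deposited scaling (-0.94).

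Matrix proteases were led by Mmp13, a collagenase. Its signals were 89.9 and 88.2 in M1, 5260 and 4775 in M2, 7812 and 7921 in M3, and 1676 and 1698 in M4, a change of -5.08 ± 0.07 (SE; limma adjusted p = 3.12e-14). E was near background, at 4.1 and 12.9. The stromelysin gene Mmp10 was lower as well (-1.46), with 610 and 636 in M1 and 1251 to 2990 elsewhere. Mmp3 was lower, with a change of -1.5 against the average, yet M3, at a mean of 317, was below M1 at 741, and the call was lost without line M2 (-0.75) or M4 (-0.93). The membrane protease gene Adam8 was higher by 2.26, with 382 and 439 in M1 and 19.5 to 137 elsewhere. In all, 2 of 30 proteases and inhibitors were higher and 3 lower (16.7% called). Of 16 basement membrane genes, 0 were higher and 2 lower (12.5% called), Col4a6 (-2.39) and the laminin chain gene Lama5 (-1.46). The other probe set for Lama5 was not called (-0.823). Among 17 integrins, 2 were higher and 3 lower (29.4% called). Itga5, a fibronectin receptor chain, was higher (1.38), as was Itgb2 (1.11, not called without line M3, 0.91, or M4, 0.90). Itgb7 (-1.90), Itga8 (-1.63) and Itgb8 (-1.46) were lower.

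Saa3, Lcn2, Csf3 and Ccl7 were lower in M1. Saa3, an acute-phase apolipoprotein, had signals of 433 and 435 in M1 and 8278 to 13089 on the other mesenchymal arrays, a change of -4.40 ± 0.04 (SE; limma adjusted p = 5.05e-16). Lcn2, a siderophore-binding lipocalin, had 671 and 718 in M1 and 6671 to 12454 elsewhere, a change of -3.54. E differed between the 2 genes, with a mean of 13000 for Lcn2 and 35.8 for Saa3. Csf3, the granulocyte colony-stimulating factor, had 262 and 236 in M1 and 1764 to 2314 elsewhere, a change of -2.92 ± 0.04. The chemokine gene Ccl7 had 1176 and 1158 in M1 and 3418 to 5716 elsewhere, a change of -1.93 ± 0.05. For these 4 genes the M1 arrays lay below all arrays of M2, M3 and M4, and those 3 lines were within 2-fold of one another. E had 6680 for Csf3, above every M line, and 28 for Ccl7, below them.

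Of 36 tested cytokines and chemokines, 9 were lower and 3 higher (33.3% called, median -0.14); with a pseudocount 4 times as large the calls were 3 lower and 3 higher. Besides Csf3 and Ccl7, the lower ones were Ccl8, Il6, Tnf, Il1a, Ccl20, Cxcl16 and Ccl11, with changes of -1.84 to -1.06. They did not move alike in each pair of lines: Il6 was lower in M1 chiefly against M4, and Ccl20 chiefly against M3. These 7 were named after their values were seen. The higher ones were the chemokine genes Cxcl12 and Ccl9 and the growth factor gene Csf2. Cxcl12 had 540 and 575 in M1, 120 and 133 in M2, 26.2 and 27 in M3, and 141 and 167 in M4, a change of 2.30 ± 0.11. Csf2 had 512 and 555 in M1 and 111 to 361 in M2 and M3, with 5.0 and 5.8 in M4.

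Defence and stress genes gave further decreases. Of 30 interferon response genes 3 were lower and 0 higher (10% called): Oas1a, which makes the second messenger that activates RNase L, had 19 and 14.5 in M1 and 180 to 486 elsewhere (-2.66), Usp18 was lower, with a change of -1.85 and Trim30a too (-1.31). Of 13 complement genes 3 were lower and 0 higher (23.1% called), among them C1s1 (-1.27), with 1080 in M1 and 2000 to 3180 in the other lines. Serping1 (-1.22) and Masp1 (-1.06) were not called without line M4 (-0.38 and -0.54). Among MHC class I antigen presentation genes, 17 were tested, with 0 higher and 1 lower (5.88% called, near the 4.44% of all genes). The lower one, Nlrc5 (-1.10), overlapped between M1 and M4 and was not called without line M3 (-0.58). Of 30 genes of oxidative stress, glutathione and metallothioneins 4 were lower and 0 higher (13.3% called). Mgst1, a membrane glutathione transferase, was lower in M1, at a mean of 477 against 3690 to 5660 (-3.11 ± 0.04; limma adjusted p = 2.34e-15). The superoxide dismutase gene Sod2 was lower, with a change of -1.35. Hmox1 (-1.15) and Txnip (-1.24) were not called without line M3 (-0.94 and -0.36).

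**Figure D3:**
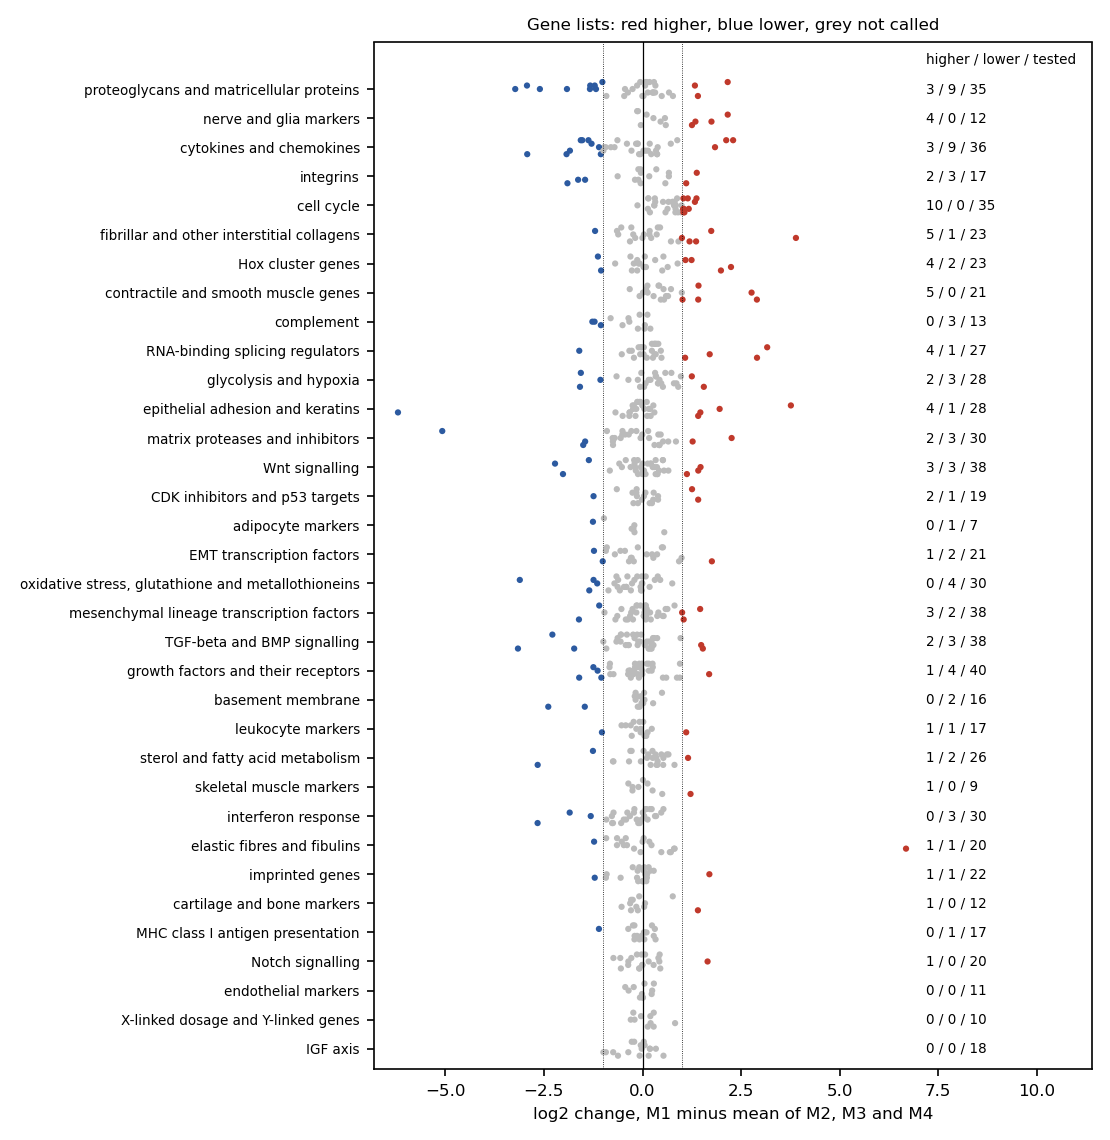
Log2 change of M1 minus the mean of M2, M3 and M4 for every tested member of the 34 gene lists, 1 point per gene, red where called higher and blue where called lower, with the counts at the right and dotted lines at 2-fold. Contractile and cell cycle genes lie mostly to the right, and calls among complement, interferon and oxidative stress genes are all to the left.

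Among the largest decreases, X-linked genes were Rhox5, Mageb16 and Pir. Rhox5, a homeobox gene, had 57.4 and 59.1 in M1, 2061 and 2209 in M2, 4306 and 4391 in M3, and 8960 and 9059 in M4, a change of -5.61 ± 0.05. Mageb16, of the MAGE family of mostly germline-expressed genes, had 13.5 and 5.5 in M1 and 1140 to 1495 elsewhere, a change of -4.99 ± 0.09. Pirin (Pir), an iron-binding nuclear protein, had 16.2 and 11.3 in M1 and 467 to 599 elsewhere, a change of -3.64. E was near background for these 3 genes, so M1 resembled E and the other mesenchymal lines did not. On the X chromosome as a whole, 2.52% of 436 tested genes were higher and 4.36% lower. Xist, the RNA that silences an X chromosome, had 2125 and 2123 in M1 and 1412 to 2232 on the other arrays. The Xist arrays overlapped and the change, 0.28, was not called; with the mean of its probe sets it was -0.08. Of the 10 tested genes of X dosage and the Y chromosome 0 were called.

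The remaining large differences concerned genes of varied function. Lower in M1 were the tight junction gene Cldn9 (31.1 on average in M1, 1170 to 2420 in the other lines), the calcium sensor gene Syt7 (6.72 against 678 to 1350) and the galectin gene Lgals7 (6.46 against 421 to 1600), with changes of -4.69, -4.67 and -4.63. For these 3 genes E was also near background. Crct1 was lower, with a change of -3.86, and the pantetheinase gene Vnn1 was lower too (-3.93), although M4 at 108 was much nearer to M1 at 53.5 than M3 at 9190. Higher in M1 were the carbonyl reductase gene Cbr1 (316 on average, against 7.51 to 23.8; 2.94), the protease inhibitor gene Ctla2a (565 against 23.1 to 89.7; 2.83) and Scrn1 (280 against 10.6 to 16.8; 2.77). The transcription regulator gene Lmo1 was at 924 in M1 but ranged from 19.2 in M4 to 315 in M3, and the chloride channel gene Ano1 was at 868 in M1 and from 34.6 in M4 to 427 in M2. E had a mean of 8040 for Ano1, above every M line, and the difference of M1 from M2 alone (0.97) was not called.

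Transcription factors of the epithelial-mesenchymal transition gave 1 higher and 2 lower calls of 21 tested (14.3% called). With the signals as deposited the calls were 3 higher and 0 lower, and with median centring 3 higher and 1 lower, so the balance turned with the scaling. Snai1 had 262 and 307 in M1 and 17.4 to 109 elsewhere, a change of 1.76 ± 0.15 (SE; limma adjusted p = 8.78e-07). Twist2 was lower, with a change of -1.23, though M3 at a mean of 1040 was close to M1 at 833, and it was not called without line M4 (-0.77) or with the deposited scaling (-0.98). Foxc1 was lower, with a change of -1.01, at the edge of the size criterion, and lost its call when line M2 (-0.91) or M3 (-0.94), M1 replicate 1 (-0.97) or M2 replicate 1 (-0.98) was left out, and with the deposited scaling (-0.78). Of 23 Hox genes 4 were higher and 2 lower (26.1% called), or 4 and 0 with the deposited scaling. Hoxa7 had 141 and 208 in M1 and 4.4 to 27.5 elsewhere (2.24), and Hoxb9 had 226 and 193 in M1 and 3.1 to 69.7 elsewhere (1.99). Hoxb13 was also higher (1.24), but from a mean M1 signal of 50.7, and its change was 0 and not called with signals below 64 set to 64. Hoxc9 was lower (-1.13), a call lost with the deposited scaling (-0.94). Of 38 transcription factors of mesenchymal lineages 3 were higher and 2 lower (13.2% called). These counts were 1 and 2 with hybridization control scaling and 4 and 1 with the deposited scaling. The largest changes, of Dlx3 (1.46) and Foxd1 (-1.61), were 0.91 and -0.99 with the floor of 64 and then not called.

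In TGF-beta and BMP signalling, 2 genes were higher and 3 lower of 38 tested (13.2% called). The ligand gene Bmp4 had 17.2 and 14.6 in M1, 264 and 287 in M2, 171 and 195 in M3, and 1050 and 1272 in M4, a change of -3.16 ± 0.12. Follistatin (Fst), a secreted inhibitor of activins, was lower, with a change of -2.29, and the receptor gene Tgfbr1, at a mean of 354 in M1 and 1060 to 1530 in the other lines, was lower too (-1.73). Neither of the other probe sets for Tgfbr1 was called. In Wnt signalling 3 of 38 were higher and 3 lower (15.8% called). The ligand gene Wnt5a was higher by 1.47, but by 0.53 and not called without line M4. Of its 3 other probe sets 1 was called higher and the lowest changed by -0.223. With the mean of probe sets Wnt5a was not called. The inhibitor gene Dkk2 was also higher (1.41, but 0.03 and not called with the floor of 64). The receptor gene Fzd6 (-2.22) and the ligand gene Wnt10a (-2.02) were lower. Notch4 was the 1 of 20 Notch genes called (5% called, near the 4.44% of all genes), higher by 1.65. Its 2 remaining probe sets gave no call, and the change was 0.67 with the mean of probe sets and 0.80 with the floor of 64, both not called. Of 40 growth factors and receptors 1 was higher and 4 lower (12.5% called). The calls were 3 higher and 2 lower with the deposited scaling and 4 higher and 6 lower with a pseudocount of 8. Pdgfc was higher by 1.69, although M4 exceeded M1, and was not called without line M2 (0.88). Pdgfrb (-1.25) was not called without line M2 (-0.76), and Pdgfra (-1.14) not without line M4 (-0.67). Of 18 genes of the IGF axis 0 were called.

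Cell cycle genes were higher in M1 than in M3, with smaller differences from M2 and M4. Of 35 tested, 10 were called higher and 0 lower (28.6% called, median 0.82), but without line M3 1 was called, while without M2 there were 21 and without M4 22. The proliferation marker Mki67 had 1573 and 1541 in M1, 1401 and 1199 in M2, 1249 and 1159 in M4, and 123 and 121 in M3. M3 was thus low and the other 3 lines were close together. The change of Mki67 was 1.33 against the average, and 0.31 and not called without line M3. The kinase gene Aurkb, the replication factor gene Mcm4 and the transcription factor gene Foxm1 were also higher, at 1.17, 1.15 and 1.37 against the average. Without line M3 their changes were 0.25, 0.33 and 0.76. Neither of the other probe sets for Foxm1 was called (0.523 and 0.686). Foxm1 was also not called with the mean of probe sets or with a pseudocount 4 times as large. The count of called cell cycle genes was also 21 with the signals as deposited. Of 19 CDK inhibitors and p53 targets 2 were higher and 1 lower (15.8% called). Perp and Cdkn1b (1.26) were higher, and Trp53inp1 was lower (-1.24, but -0.76 and not called without line M3).

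**Figure D4:**
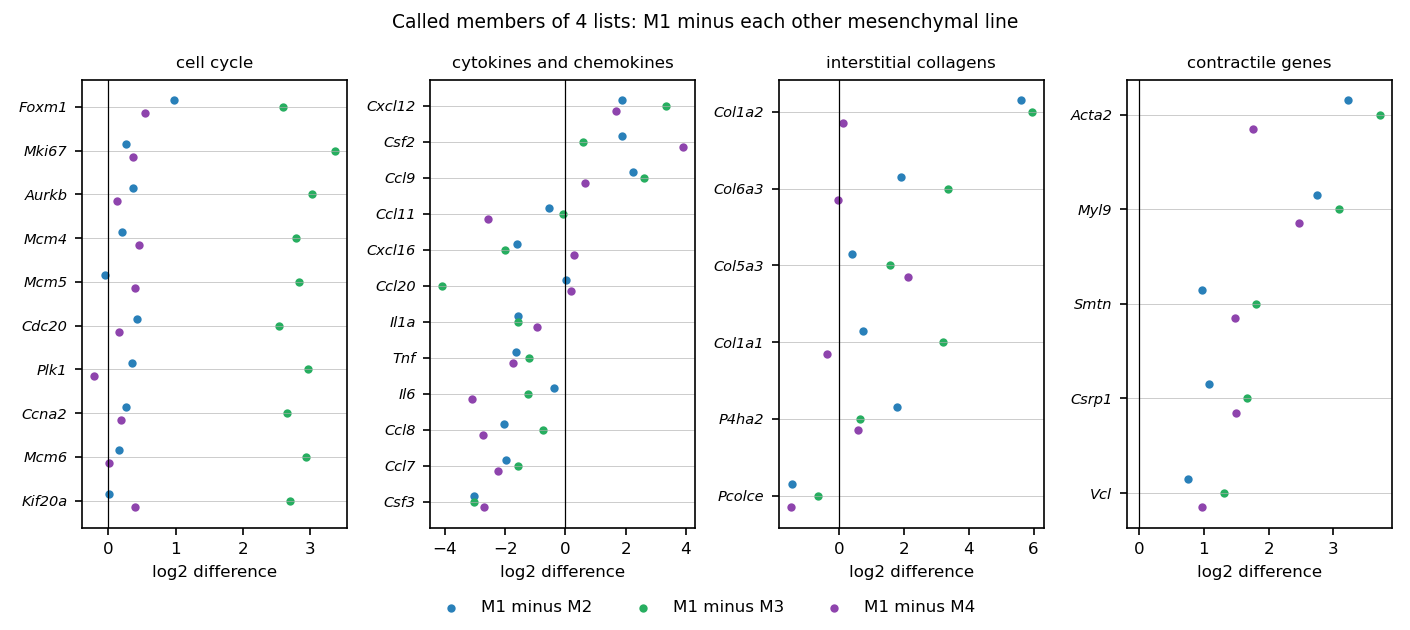
Log2 difference of M1 from M2 (blue), M3 (green) and M4 (purple) for the called members of 4 gene lists, 1 row per gene. The cell cycle points for M3 lie far right of those for M2 and M4, the M4 points of Col1a2 and Col6a3 lie near 0, and for the contractile genes and Csf3 all 3 points lie on the same side of 0.

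Calls in the metabolic lists went in both directions. Of 28 glycolysis and hypoxia genes 2 were higher and 3 lower (17.9% called). The higher ones were the carbonic anhydrase gene Car9 (1.56) and Pfkl (1.25). Car9 was not called with a pseudocount 4 times as large. Neither of the other probe sets for Pfkl was called (0.574 and 0.991), nor was Pfkl with the mean of probe sets. Among the lower were the glucose transporter gene Slc2a3 (-1.59, but -0.43 and not called with the floor of 64) and Ldhb (-1.56). With the signals as deposited 7 were higher and 2 lower, and with median centring 6 and 2. Of 26 genes of sterol and fatty acid metabolism 1 was higher and 2 lower (11.5% called), or 3 and 2 with the deposited scaling. The cholesterol exporter gene Abca1 had 46.9 and 49.1 in M1 and 238 to 941 elsewhere, a change of -2.66 ± 0.09, although neither of its other probe sets was called. Idi1 (1.16) was not called without line M3 (0.18), and Lpl (-1.26) not without line M4 (-0.16). Among 22 imprinted genes (9.09% called) Plagl1 was higher (1.70, but 0.26 and not called with the floor of 64) and Dcn lower.

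Markers of nerve and glia gave 4 higher calls of 12 tested and 0 lower (33.3% called, against 4.44% of all genes). Their median was 0.51, against -0.01 for all genes. The neuronal tubulin gene Tubb3 had 427 and 424 in M1 and 90.1 to 125 elsewhere (1.75), and the microtubule gene Map2 had 201 on both M1 arrays and 6.6 to 53.5 elsewhere (2.16). Nestin (Nes, 1.34) and Ncam1 (1.25) were also higher, the last of these not called with the floor of 64 (0.47). The other probe set for Nes (0.115) was not called, and Nes was not called with the mean of probe sets. Neither of the other probe sets for Map2 was called (0.478 and 0.497), whereas 2 of the 3 others for Ncam1 were called higher. The summed signal of the 18 markers on the array was 1636 and 1721 in M1 and 519 to 625 on the other arrays, and 4 of the 18 exceeded 100 in M1. E had 421 for Map2 and 925 for Nes. Among the other cell type lists, leukocytes gave 1 higher and 1 lower of 17 (11.8% called) and endothelium 0 of 11. Adipocytes gave 0 higher and 1 lower of 7 (14.3%), and skeletal muscle 1 higher (Acta1, 1.22) and 0 lower of 9 (11.1%). Cartilage and bone gave 1 higher and 0 lower of 12 (8.33%). The higher one was Acan (1.41, but 0.73 and not called with the floor of 64).

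Called genes were also ordered along the chromosomes to find neighbours that moved together. A single run of at least 4 consecutive tested genes called in the same direction was found, on chromosome 14: Comtd1 (-1.16), Zfp503 (-1.37), Lrmda (-1.94) and Kcnma1 (-1.12) were all lower in M1. Zfp503, a zinc finger repressor, had a mean of 274 in M1 and 479 to 1060 in the other lines, and Lrmda 32.7 against 131 to 373. Without line M3, Comtd1 (-0.98) and Kcnma1 (-0.66) were not called. The median change of whole chromosomes in M1 ran from -0.18 on chromosomes 14 and 18 to 0.18 on chromosome 15. The same range was -0.13 to 0.16 in M2, -0.10 to 0.23 in M3 and -0.28 to 0.23 in M4.

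**Figure D5:**
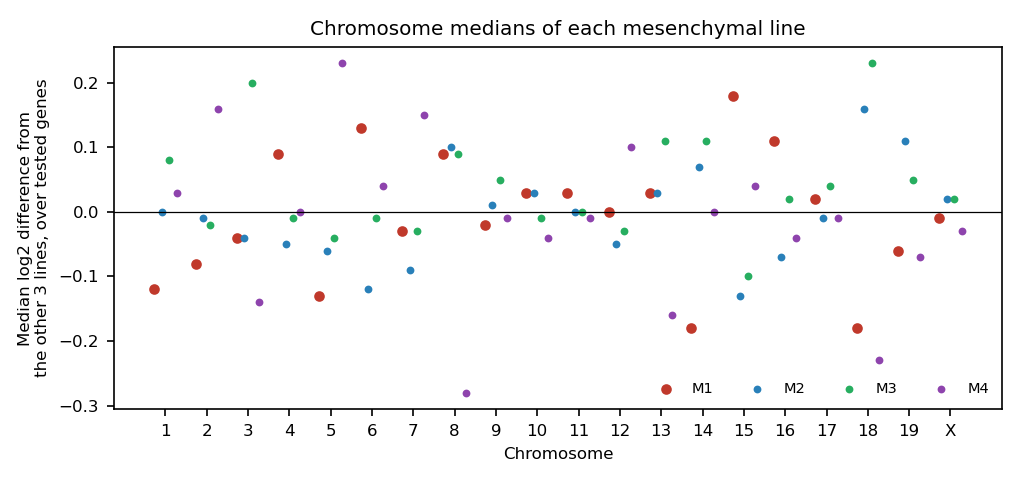
Median log2 difference of each mesenchymal line from the average of the other 3, over the tested genes of each chromosome, with M1 in red. The M1 medians stay between -0.18 and 0.18, within the span of the other lines, and are lowest on chromosomes 14 and 18.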

How the data were processed

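The authors deposited probe set intensity values on a linear scale, with 45101 probe sets on each of 10 arrays, of which 64 are controls. GCOS 1.3 is named in the submitters' processing notes. The method of signal calculation and scaling: not given in the sources used here. Biotin-labelled cRNA was hybridized, per the labels' protocols. Probe sets were named from the platform annotation: 34945 had 1 symbol, 932 several and 9160 none.

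Arrays were quantile-normalized together, 32 was added and log2 taken. Probe sets above their array's 40th percentile on at least 2 mesenchymal arrays were kept, and each gene was represented by the probe set with the highest mean over those arrays. The signals in the text are normalized and linear. In limma 3.58.1 (R 4.3.3; lmFit, eBayes with trend) 1 mean per line was fitted over all 10 arrays, with 5 residual degrees of freedom, and M1 was compared with the average of M2, M3 and M4. Changes are on the log2(signal + 32) scale, which understates those of low genes. "Higher" and "lower", said of a change, refer to calls. The contrasts against M2, M3 and M4 share the M1 arrays. The script was tested on simulated data.

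Genes named were Efemp1, Krt18, Mbnl3, Krt8 and Xist, the 12 highest and 12 lowest calls without overlap (clone names left out), up to 4 called members per list with the largest change, and members of runs of neighbours; other genes are markers or were named after their values were seen (Sfn, Vcl, Srf, Ccn1, Ccl9, 7 further cytokine genes and the remaining genes of the plot by line). The members and the 34 lists were chosen with earlier results of these data known. Of 115 named genes, 56 had other probe sets; in 31 some of these were not called and in 0 were calls opposite. Alternatives covered scaling, pseudocount, filter, probe sets, the prior, the unit of replication and each array or line left out. The number of arrays limits the precision.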

Additional observations from a re-analysis of the deposited data

How the results depend on the processing

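The count of 638 calls (293 higher, 345 lower) changed most with the unit of replication and the pseudocount. With line means as units it was 8 (5 higher, 3 lower). With a pseudocount of 8 it was 1054 (475 higher, 579 lower) and with 4 times the pseudocount it was 287 (119 higher, 168 lower). With the deposited scaling 536 genes were higher and with median centring 457. Leaving out 1 array gave 634 to 663 calls. The other settings, namely hybridization control scaling, the mesenchymal arrays alone, a floor of 64, no filter, a 60th percentile filter, the mean of a gene's probe sets, no trend and each line left out, gave 511 to 797. No called gene was called in the opposite direction under any of these alternatives. Of 114 called named genes, 103 stayed called with the deposited scaling and 7 with line means. The change of Xist, not called, reversed to -0.08 with the mean of its probe sets. The labels link same-numbered arrays of different lines only by the replicate number. Their deviations from the line means correlated at -0.024 to 0.019, and with the replicate block 638 genes were called. A difference common to a whole array would be removed by quantile normalization before this check, so the check cannot show whether arrays were processed together. Causes of these shifts were not tested, and signals near background limit the size of the largest changes.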
